A study of Mus musculus with 27 samples.

Results

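The transcripts of 7 neuropeptide genes were followed in mouse dorsal root ganglia, out of 55367 genes in the ganglion count table. The genes were Calca, Calcb, Tac1, Nppb and Sst, known from pain- and itch-sensing neurons, and Cartpt and Uts2b. Which ganglion cells held the Cartpt and Uts2b transcripts was not tested. They were taken by symbol, and the symbols had been chosen by their levels in these ganglion libraries, for a lower level after nerve injury or a high level with RU521. The contrasts of injury and of RU521 are therefore given for these genes as descriptions with no test, while the contrasts between genotypes within injured and within sham ganglia were tested. Those tests use libraries that also entered the choice of the genes. Choosing genes for a lower level after injury can favour high wild-type sham and low wild-type injured values. That can pull the difference of knockout from wild type down in sham and up in injured ganglia.

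Dorsal root ganglia hold the cell bodies of sensory neurons, here those at lumbar levels L4-L5 that send axons into the sciatic nerve. There were 15 bulk libraries in 5 groups of 3. They came from injured wild-type mice given RU521, a small-molecule inhibitor of the DNA sensor cGAS, from injured Ptpn2 knockout mice, from injured wild-type mice, from Ptpn2 knockout mice after sham surgery and from wild-type mice after sham surgery. Sample titles call the ganglia without injury intact, while the treatment labels say sham surgery, and sham is used here. The titles write the ganglion knockout as cko. Ptpn2 encodes a tyrosine phosphatase whose substrates include JAK and STAT proteins. Injury was to the sciatic nerve, samples were taken 3 days after it, and RU521 was delivered into that nerve. No vehicle-treated injured group was analysed here, so the RU521 group is set against injured wild type without a stated vehicle. The cells in which the knockout acts, the driver of recombination in ganglia, the strain, age and sex of the mice, and whether replicates are separate animals, are each not given in the sources used here. All p-values below therefore measure only the spread between these libraries. A second table holds 12 libraries of retinal ganglion cells, 3 in each of 4 groups, and is used at the end.

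Neuropeptides are made as longer precursors, cut by convertases inside dense-core vesicles and released from both the central and the peripheral ends of sensory neurons. Calca and Calcb encode the alpha and beta forms of calcitonin gene-related peptide (CGRP), a vasodilator and marker of peptidergic nociceptors, and Tac1 encodes substance P and neurokinin A. In mice Nppb, the precursor of a natriuretic peptide, and Sst, which encodes the inhibitory peptide somatostatin, mark a class of itch neurons. Cartpt encodes the precursor of cocaine- and amphetamine-regulated transcript peptides, and Uts2b encodes urotensin-related peptide. Axon injury is known to lower CGRP and substance P in sensory neurons and to raise galanin and neuropeptide Y.

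Calca and Calcb are neighbours on chromosome 7 of GRCm38, at chr7:114631478-114636357 on the minus strand and chr7:114718643-114723365 on the plus strand, 82286 bases apart. Near-identical sequence could blur their counts, so the part of their transcripts where they are most alike is shown, from GENCODE M21, with the bases that differ in capitals. It lies in the coding region and includes most of the sequence of the CGRP peptide.
Calca: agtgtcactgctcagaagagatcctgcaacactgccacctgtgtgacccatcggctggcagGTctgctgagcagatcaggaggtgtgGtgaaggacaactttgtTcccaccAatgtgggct
Calcb: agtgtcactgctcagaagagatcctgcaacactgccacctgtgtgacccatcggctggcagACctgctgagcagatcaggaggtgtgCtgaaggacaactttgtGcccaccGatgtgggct
Of these 121 bases 5 differed, and the longest identical stretch was 61 bases. None of the 895 windows of 100 bases, the read length in ganglia, in this Calca transcript occurred in this Calcb transcript. The exons of the 7 genes overlapped those of no other gene in the annotation.

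The other genes lie at chr6:7554879-7565834 on the plus strand (Tac1), chr4:147985788-147987205 on the plus strand (Nppb), chr16:23889573-23890958 on the minus strand (Sst), chr13:99898489-99901091 on the minus strand (Cartpt) and chr16:27353322-27370239 on the minus strand (Uts2b). RefSeq promoter windows of GRCm38.p6, from 250 bases before to 50 bases after the transcription start, were matched for 6 of the 7 genes, and Calcb had no entry. The windows of the 3 genes below are shown because Cartpt and Uts2b had the highest levels with RU521 relative to both wild-type groups, and because Sst shares the motif of Cartpt. Capitals mark the cyclic AMP response element TGACGTCA in Cartpt and Sst. In Uts2b they mark an AP-1 element (TGANTCA) and a pair of overlapping TATA boxes, TATAAA as read in the printed strand and its reverse complement.
Cartpt, chr13:99900634-99900933, minus strand: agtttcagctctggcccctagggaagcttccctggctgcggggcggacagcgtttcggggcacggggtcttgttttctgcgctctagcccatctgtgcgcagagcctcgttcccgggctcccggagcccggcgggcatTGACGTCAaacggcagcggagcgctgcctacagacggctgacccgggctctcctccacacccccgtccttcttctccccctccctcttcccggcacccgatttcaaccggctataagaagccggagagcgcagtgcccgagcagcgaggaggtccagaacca
Sst, chr16:23890795-23891094, minus strand: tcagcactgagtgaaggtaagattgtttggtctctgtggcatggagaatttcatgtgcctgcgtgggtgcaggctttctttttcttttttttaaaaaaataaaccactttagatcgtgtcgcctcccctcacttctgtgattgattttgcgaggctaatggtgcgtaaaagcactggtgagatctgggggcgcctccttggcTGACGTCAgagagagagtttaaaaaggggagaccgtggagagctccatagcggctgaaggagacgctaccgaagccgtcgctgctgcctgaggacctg
Uts2b, chr16:27370190-27370489, minus strand: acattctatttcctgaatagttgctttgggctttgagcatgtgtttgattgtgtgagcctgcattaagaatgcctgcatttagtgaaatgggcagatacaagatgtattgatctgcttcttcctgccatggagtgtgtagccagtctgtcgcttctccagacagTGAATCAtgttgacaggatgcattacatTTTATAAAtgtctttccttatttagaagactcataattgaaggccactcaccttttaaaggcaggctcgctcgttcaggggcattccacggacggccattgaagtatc
The full cyclic AMP response element began 112 bases before the start site in Cartpt and 48 bases before it in Sst. It occurred in 1.79% of 32851 promoter windows of the same length, searched on both strands. Its core, TGACG, which the full element contains, also stood in the Calca and Tac1 windows and occurred in 20.8% of all windows. The AP-1 element of Uts2b began 86 bases before the start site, and 7.81% of all windows held one. TATAAA was found in Uts2b and Nppb and in 13.6% of all windows. Of 3 motifs of interferon signalling, the core of the interferon-stimulated response element stood in Sst, beginning 176 bases before the start site, and in 3.44% of all windows. The shorter IRF element AANNGAAA, which overlaps it there, was found in Sst and Tac1 and in 23.9% of all windows. None of the 6 windows held the STAT element TTCNNNGAA, which 8.3% of all windows held. These matches describe letters in the windows only.

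Ganglion libraries held 14813365 to 22414750 counts, and 3 counts, taken as the floor of detection, stood for 0.134 to 0.203 CPM (counts scaled by library size and TMM normalisation factors). All 10 general sensory neuron markers were detected in every group. Markers of motor neurons were low. The summed level of 4 cholinergic motor neuron genes was 0.951 to 1.94 CPM with RU521, 2.25 to 4.01 CPM in injured knockout, 0.967 to 1.32 CPM in injured wild type, 1.26 to 3.40 CPM in sham knockout and 0.428 to 1.66 CPM in sham wild type, with Slc18a3 at 0 in sham knockout. The list of sympathetic neuron genes summed to 134 to 256 CPM with RU521, 32.5 to 46.1 CPM in injured knockout, 41.3 to 73.6 CPM in injured wild type, 52.8 to 98.4 CPM in sham knockout and 65.4 to 169.8 CPM in sham wild type. Its most abundant gene was Th, which encodes tyrosine hydroxylase and in mice also marks a class of C-fibre sensory neurons, while Dbh averaged 0.510 CPM or less in every group. Th averaged 193 ± 62.0 CPM with RU521 and 52.3 ± 17.1 CPM in injured wild type (log2 fold change 1.88 ± 0.35 SE, n = 3 each, edgeR adjusted p = 0.00572). It fell with injury in wild type (-1.27 ± 0.35, edgeR adjusted p = 0.0234), a call lost without wild-type sham replicates 1 and 3, with only the groups compared and with detected genes as a covariate. The part of these cells in the peptide levels was not tested. Wild-type sham replicates 1 and 3 stood apart, with 26235 and 26802 genes detected and 4.87% and 6.52% mitochondrial counts, against 34115 genes and 15.2% in replicate 2. They also held the most sensory neuron RNA, and every value set against wild-type sham rests in part on them. Leaving both out keeps 1 wild-type sham library, replicate 2, with no spread of its own. A call lost in that setting does not show that a change is absent. RU521 replicate 1 was alike to a lesser degree, with 28803 genes and 7.83% mitochondrial counts. RU521 replicates 2 and 3 had 32488 and 30938 genes and 15.5% and 11.3%. The sensory marker sum of RU521 replicate 1, 8296 CPM, was the highest of its group, and the RU521 contrasts rest in part on it.

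All 7 genes were detected in all 15 libraries. Per kilobase of exon, Calca stood highest in every group, at a mean of 1397 CPM per kilobase with RU521, 703 in injured knockout, 606 in injured wild type, 1050.3 in sham knockout and 1118 in sham wild type. Calcb came next in every group (339, 135, 122, 203 and 216 CPM per kilobase in the same order) and Tac1 after it (83.5, 26.7, 24.9, 57.1 and 69.4). Nppb, Sst, Cartpt and Uts2b stood below these at 0.917 to 50.2 CPM per kilobase. Uts2b was the lowest of the 7 in all groups except RU521, where at 38.0 CPM per kilobase it stood above both Sst (25.7) and Nppb (22.7).

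**Figure D1:**
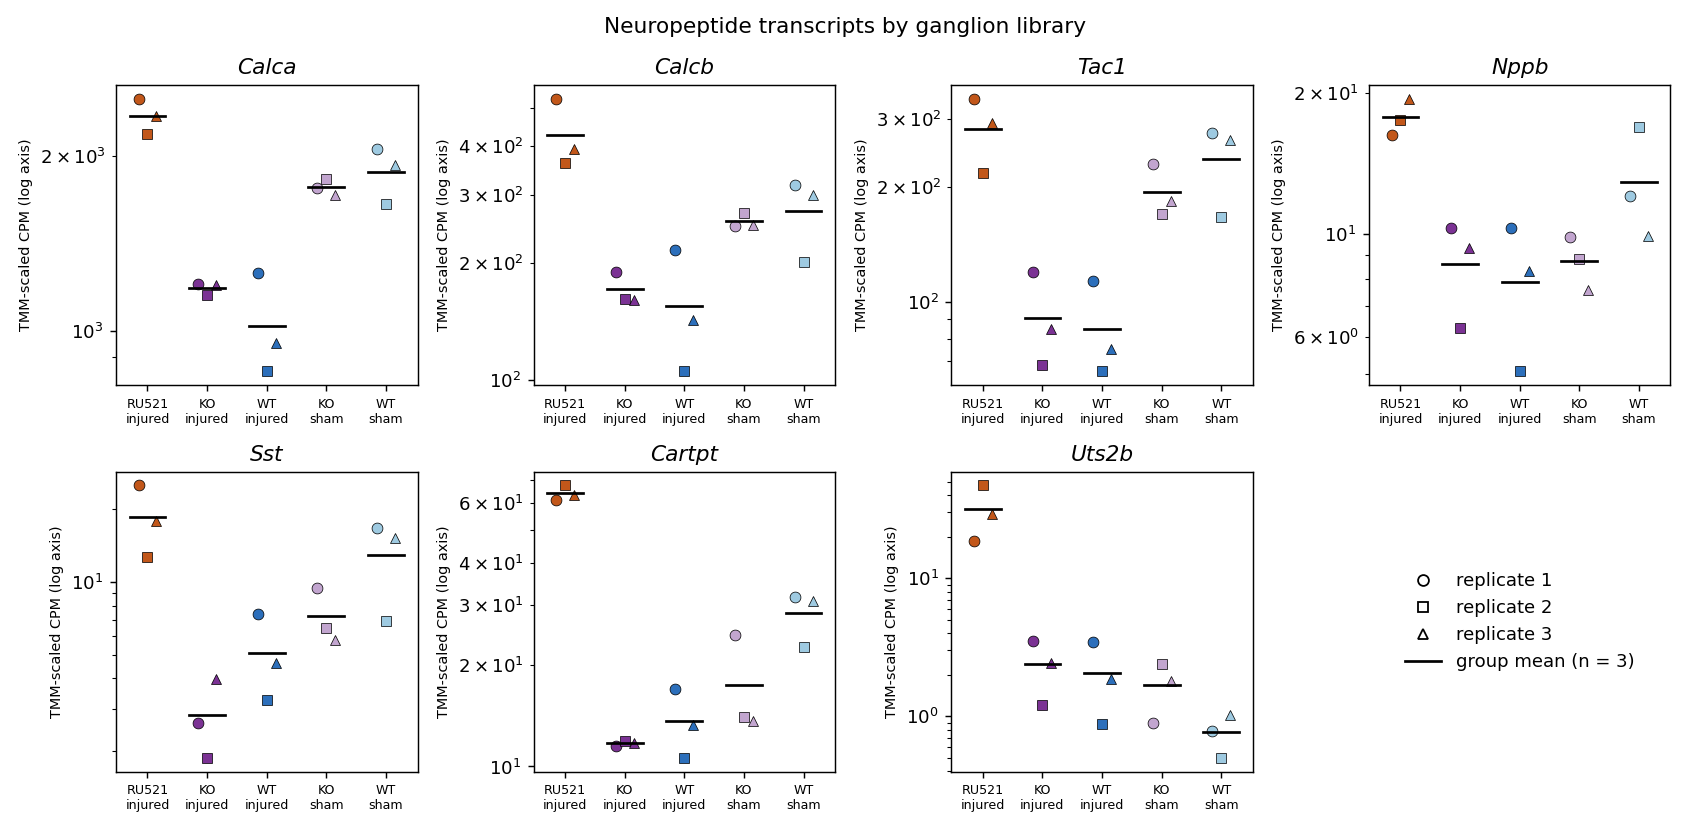
Level of each gene in the 15 ganglion libraries, as TMM-scaled CPM on a log axis, with symbols for replicates and a line at the mean of 3. RU521 libraries stand above all injured libraries for each gene, and for Calca, Calcb, Cartpt and Uts2b also above all sham libraries.

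Calca, the more abundant CGRP gene, had 2517, 2189 and 2351 CPM in RU521 libraries, 1202, 1153 and 1199 CPM in injured knockout and 1258, 851 and 951 CPM in injured wild type. Its level was 1763, 1825 and 1718 CPM in sham knockout and 2061, 1655 and 1929.9 CPM in sham wild type. The 3 RU521 libraries were the highest of the 15, the 6 injured libraries without RU521 were the lowest, and the sham libraries lay between them without overlap. Injured wild type averaged 54.2% of sham wild type, and injured knockout 67.0% of sham knockout. The RU521 mean was 125% of sham wild type and 2.31-fold that of injured wild type.

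Calcb, the beta CGRP gene, followed a like order. RU521 libraries held 529.9, 361 and 393 CPM, injured knockout 190.2, 162 and 161 CPM and injured wild type 217, 105 and 143 CPM. Sham knockout held 249, 269.8 and 250.0 CPM and sham wild type 317, 201 and 299 CPM. All RU521 libraries again stood above all others, but injured and sham wild type overlapped, because injured replicate 1 was above sham replicate 2. The RU521 mean was 2.77-fold that of injured wild type. Counts of Calca per count of Calcb averaged 5.60 with RU521 (4.75 to 6.05), 6.96 in injured knockout, 6.85 in injured wild type (5.81 to 8.08), 6.91 in sham knockout and 7.06 in sham wild type, and the RU521 range overlapped that of injured wild type.

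Tac1, the substance P gene, had the lowest level relative to sham after injury in wild type. It had 340.1, 217 and 294 CPM in RU521 libraries, 119.5, 68.4 and 84.7 CPM in injured knockout and 114, 65.7 and 75.1 CPM in injured wild type. Sham knockout held 229, 170.0 and 184 CPM and sham wild type 276, 167 and 265 CPM. Injured and sham libraries did not overlap in either genotype, and the injured means were 46.8% of sham in knockout and 35.9% in wild type. The RU521 libraries lay above all injured libraries, at 3.35-fold the mean of injured wild type, but overlapped sham wild type.

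Nppb and Sst, the peptides of itch neurons, were low in every group. Nppb had 16.3, 17.5 and 19.5 CPM with RU521, 10.3, 6.29 and 9.32 CPM in injured knockout and 10.3, 5.07 and 8.32 CPM in injured wild type. It had 9.81, 8.84 and 7.56 CPM in sham knockout and 12.02, 16.9 and 9.89 CPM in sham wild type. Injured and sham libraries overlapped in both genotypes for Nppb, and its injured knockout mean was 98.7% of sham. Sst had 25.1, 12.7 and 17.8 CPM with RU521, 2.63, 1.87 and 3.97 CPM in injured knockout and 7.39, 3.25 and 4.64 CPM in injured wild type. Its sham level was 9.45, 6.45 and 5.75 CPM in knockout and 16.8, 6.91 and 15.2 CPM in wild type. The RU521 libraries stood above all injured libraries for both genes and overlapped sham wild type for both. Sst had its lowest level in injured knockout, from 28 to 60 counts a library.

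Cartpt had 61.1, 67.7 and 63.5 CPM in RU521 libraries, 11.5, 11.9 and 11.8 CPM in injured knockout and 17.0, 10.6 and 13.3 CPM in injured wild type. Sham knockout held 24.4, 14.0 and 13.7 CPM and sham wild type 31.7, 22.5 and 30.7 CPM. The RU521 libraries varied little among themselves and lay far above every other library. Their mean, 64.1 ± 3.32 CPM, was 4.71-fold that of injured wild type, 13.6 ± 3.21 CPM, and 226% of that of sham wild type, 28.3 ± 5.04 CPM (SD, n = 3 each).

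Uts2b was almost silent outside the RU521 group. RU521 libraries held 18.8, 47.2 and 29.2 CPM, from 316, 748 and 467 counts. Injured knockout held 3.51, 1.20 and 2.45 CPM and injured wild type 3.48, 0.882 and 1.87 CPM. Sham knockout held 0.897, 2.39 and 1.80 CPM and sham wild type 0.784, 0.498 and 1.02 CPM, the last from 18, 8 and 19 counts. The lowest RU521 library stood above the highest of the other 12, while the 4 other groups each overlapped the next in order of their means. The RU521 mean of 31.7 ± 14.4 CPM was 15.3-fold that of injured wild type, 2.08 ± 1.31 CPM, and 41.4-fold that of sham wild type, 0.766 ± 0.259 CPM (SD, n = 3 each). Its spread among RU521 libraries was wide, and replicate 2, the highest for Uts2b, was the lowest RU521 library for Calca, Calcb, Tac1 and Sst.

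**Figure D2:**
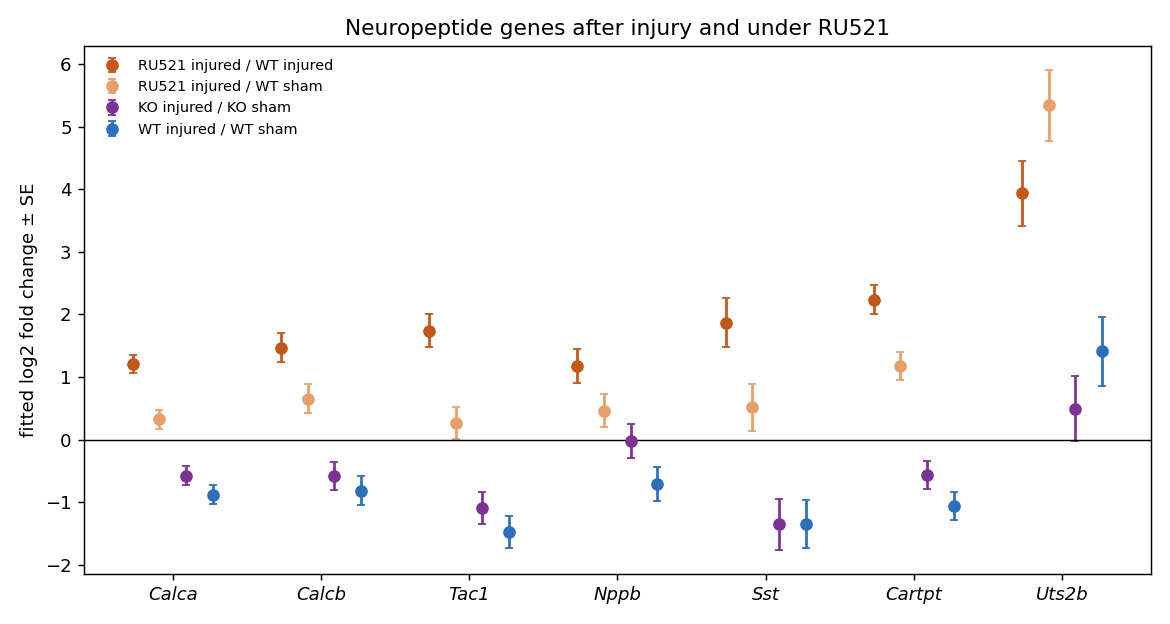
Fitted log2 fold changes with their standard errors for the 7 genes in 4 comparisons, a description with no test because the genes were listed from these contrasts. Values with RU521 against injured wild type lie between 1.17 and 3.93, and values for injury lie below 0 except for Uts2b.

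In fitted log2 fold changes, injury in knockout gave -0.58 ± 0.15 for Calca, -0.58 ± 0.23 for Calcb, -1.09 ± 0.26 for Tac1, -0.02 ± 0.27 for Nppb, -1.35 ± 0.41 for Sst and -0.57 ± 0.23 for Cartpt (± SE throughout). Injury in wild type gave -0.88 ± 0.15 for Calca, -0.82 ± 0.23 for Calcb, -1.48 ± 0.26 for Tac1, -0.71 ± 0.27 for Nppb, -1.35 ± 0.39 for Sst and -1.06 ± 0.22 for Cartpt. Uts2b had values above 0, 0.50 ± 0.52 in knockout and 1.41 ± 0.55 in wild type. All 3 injured libraries lay below all 3 sham libraries for 5 of the 7 genes in knockout, where 18.5% of all 18517 genes tested did so, and for 3 of 7 in wild type, where 15.8% did. The members' median was -0.58 in knockout, against -0.01 for all genes, and -0.88 in wild type, against 0.00. Without wild-type sham replicates 1 and 3 the wild-type values were -0.65 for Calca, -0.33 for Calcb, -0.93 for Tac1, -1.05 for Nppb, -0.39 for Sst, -0.68 for Cartpt and 2.08 for Uts2b.

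RU521 against injured wild type gave 1.21 ± 0.15 for Calca, 1.47 ± 0.23 for Calcb, 1.74 ± 0.26 for Tac1, 1.17 ± 0.27 for Nppb, 1.87 ± 0.39 for Sst, 2.24 ± 0.23 for Cartpt and 3.93 ± 0.52 for Uts2b. All 3 RU521 libraries lay above all 3 injured wild-type libraries for 7 of 7 genes, where 16.1% of all genes did so. The median was 1.74, against -0.03 for all genes. Without injured wild-type replicate 1, which held more of each of the 7 transcripts than its 2 partners, Uts2b moved to 4.55.

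RU521 against sham wild type, which sets an injured treated ganglion against an uninjured one, gave 0.32 ± 0.15 for Calca, 0.65 ± 0.23 for Calcb, 0.27 ± 0.25 for Tac1, 0.46 ± 0.27 for Nppb, 0.51 ± 0.38 for Sst, 1.18 ± 0.22 for Cartpt and 5.34 ± 0.57 for Uts2b. Calca, Calcb, Cartpt and Uts2b did not overlap between these groups, 4 of 7 genes, where 6.8% of all genes were higher without overlap. The 3 others overlapped. This comparison and the one with injured wild type share the RU521 libraries. Without sham replicates 1 and 3 the value was 1.46 for Sst, 6.02 for Uts2b and 0.12 for Nppb.

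Between genotypes no member passed the test. With edgeR's quasi-likelihood test and Benjamini-Hochberg adjustment over all 18517 genes, 0 of 7 were called in injured ganglia, where 2.2% of all genes were, and 0 of 7 in sham ganglia, where 0.135% were. DESeq2 also called 0 of 7 in each, and limma-voom with quality weights called 0 in injured and 2 in sham ganglia. Of all genes DESeq2 called 791 in injured and 259 in sham ganglia, and limma-voom 2101 and 3008. An unadjusted p below 0.05 was reached by 0 members in injured and 2 in sham ganglia, against 2448 and 1607 of all genes.

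In injured ganglia the largest difference between knockout and wild type was that of Sst, -0.85 ± 0.41 (adjusted p = 0.395), and Calca was at 0.22 ± 0.15 (adjusted p = 0.592). The other 5 lay between -0.21 and 0.21, and knockout and wild type overlapped for all 7 genes. In sham ganglia the values below 0 were -0.71 ± 0.22 for Cartpt (adjusted p = 0.284), -0.84 ± 0.38 for Sst (adjusted p = 0.558), -0.56 ± 0.27 for Nppb (adjusted p = 0.59), -0.28 ± 0.25 for Tac1 (adjusted p = 0.808) and -0.09 for both Calca and Calcb, with standard errors of 0.15 and 0.23. Uts2b was at 1.13 ± 0.56 (adjusted p = 0.611). Nppb was the one gene of the 7 whose knockout sham libraries all lay below the wild-type ones, as 5.24% of all genes did. Divided by the summed sensory neuron markers of the same library, Nppb overlapped (-0.27), while in sham ganglia Sst (-0.50) and Cartpt (-0.47) were lower and Uts2b (1.37) higher in knockout without overlap. In injured ganglia all 7 genes overlapped on that scale too. The share of all genes without overlap was not computed for that scale.

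The sham difference of Cartpt passed when replicate 2 of wild-type sham was left out (-0.84, edgeR adjusted p = 0.0469) and in limma-voom (-0.95, adjusted p = 0.00246), as did that of Sst in limma-voom (-1.16, adjusted p = 0.00871). Replicate 2 was the lowest wild-type sham library for Cartpt. These p-values use wild-type sham libraries by which the genes were chosen, so they are no independent support. Without wild-type sham replicates 1 and 3, in contrast, Sst stood at 0.10. The knockout sham libraries held less sensory neuron RNA than those replicates, with summed markers at 5687 to 7508 CPM in knockout and 5256 to 9189 CPM in wild type. Fat markers differed as well, the 4 genes summing to 146 to 248 CPM in sham knockout and 11.8 to 66.0 CPM in sham wild type. Of them Ucp1 (6.62 ± 0.60, edgeR adjusted p = 0.000186) and Cidea (2.76 ± 0.44, edgeR adjusted p = 0.0188) were called higher, 2 of 4, or 1 of 4 with only the groups compared. The part of neuron content and of fat in these differences was not tested.

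The difference between the injury effects of the genotypes (knockout minus wild type) is made from the injury contrasts by which the genes were chosen, so it is given for them with no test. Across all genes edgeR called 0.448%. The difference was 0.31 ± 0.21 for Calca, 0.38 ± 0.36 for Tac1, 0.70 ± 0.38 for Nppb, 0.49 ± 0.32 for Cartpt and -0.92 ± 0.76 for Uts2b. These standard errors leave room for differences in either direction.

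The content of neurons and other cells differed between the groups, and in bulk ganglia fewer cells of a type and less RNA per cell cannot be told apart. The summed level of the 10 sensory neuron markers was 4706 to 8296 CPM with RU521, 4748 to 4856 CPM in injured knockout, 4588 to 4750 CPM in injured wild type, 5687 to 7508 CPM in sham knockout and 5256 to 9189 CPM in sham wild type. Of these markers 4 of 10 rose with RU521 against injured wild type, among them the sodium channel gene Scn9a (1.37 ± 0.23, edgeR adjusted p = 0.00375). With injury 2 of 10 fell in knockout and 7 of 10 in wild type, such as the transcription factor gene Isl1 (-0.89 ± 0.18, edgeR adjusted p = 0.00531). The wild-type calls rest in part on sham replicates 1 and 3, without which 1 sham library is left. Across all genes 5.1% were called higher and 4.48% lower with RU521 against injured wild type, and 1.85% higher against sham wild type. With injury 6.34% were called higher and 4.57% lower in knockout, and 8.6% higher and 7.98% lower in wild type.

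Glial and blood markers moved as well. All 4 markers of myelinating Schwann cells fell with RU521 against injured wild type, their sum being 7352 to 8905 CPM with RU521 and 19763 to 21665 CPM in injured wild type. That sum was 8985 to 11316 CPM in injured knockout, 9355 to 9784 CPM in sham knockout and 9236 to 14363 CPM in sham wild type, so injured wild type stood apart from the 4 other groups. Of 5 macrophage markers 2 fell with RU521, the sum being 95.5 to 225 CPM against 286 to 427 CPM in injured wild type. The 3 red blood cell genes summed to 3051 to 6681 CPM with RU521 and 10007 to 10069.5 CPM in injured wild type, with 0 of 3 called. The 3 oligodendrocyte genes summed to 2.91 to 30.6 CPM and 24.2 to 62.6 CPM. Almost all of that was Mobp, the 1 gene of the list tested, which was not called (edgeR adjusted p = 0.155). In injured wild type Mobp averaged 44.9 CPM, Mog 0.384 CPM and Opalin 0.12 CPM. With injury 4 of 5 macrophage markers rose in knockout and 5 of 5 in wild type. Their sum was 397 to 402 CPM in injured knockout and 114 to 148 CPM in sham knockout, and it was 286 to 427 CPM in injured wild type and 64.9 to 191 CPM in sham wild type. In wild type 3 of 3 red blood cell genes also rose, their sum being 10007 to 10069.5 CPM in injured and 1109 to 6045 CPM in sham wild type, as did 2 of 4 Schwann cell markers. Without sham replicates 1 and 3, wild-type injury called 1 of 5 macrophage markers, 0 of 3 red blood cell genes and 1 of 4 Schwann cell markers. With only the groups compared it called 4 of 5, 1 of 3 and 0 of 4, and with detected genes as a covariate 2 of 5 macrophage markers. Of the 4 fat markers 3 fell with injury in knockout, the sum being 17.4 to 49.6 CPM in injured and 146 to 248 CPM in sham knockout. The part of these markers in the peptide levels was not tested.

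**Figure D3:**
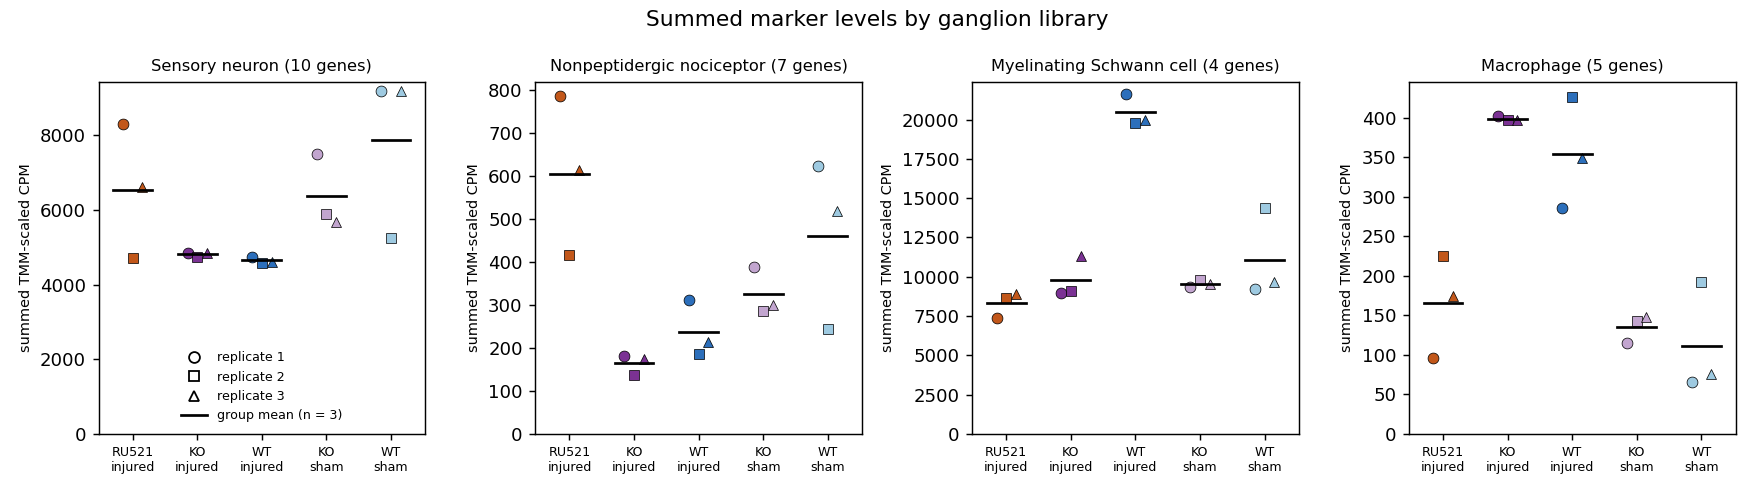
Summed TMM-scaled CPM of 4 marker lists in each ganglion library, with a line at the group mean. Schwann cell markers are highest in the 3 injured wild-type libraries, at 19763 to 21665 CPM, and sensory neuron markers are lowest in the injured libraries without RU521 and in RU521 replicate 2.

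Relative to the summed sensory neuron markers of the same library, the RU521 levels stayed higher. Against injured wild type the log2 difference of this ratio was 0.77 for Calca, 1.05 for Calcb, 1.30 for Tac1, 1.43 for Sst, 1.80 for Cartpt and 3.59 for Uts2b, with no overlap of libraries for these 6 genes, and 0.77 for Nppb, whose libraries overlapped. Calca, for example, stood at 37.4 ± 8.26% of the marker sum with RU521 and 21.9 ± 4.10% in injured wild type (SD, n = 3 each). Against sham wild type the difference was 0.58 for Calca, 0.92 for Calcb, 0.54 for Tac1, 0.75 for Nppb, 0.82 for Sst, 1.45 for Cartpt and 5.59 for Uts2b, and Calca and Nppb overlapped. The share of all genes without overlap on this scale was not computed, so these overlaps are descriptions only.

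The values for injury became smaller on this scale for most of the genes. In wild type they were -0.18 for Calca, -0.14 for Calcb, -0.02 for Nppb and -0.35 for Cartpt, with injured and sham libraries overlapping for each. Tac1 remained lower without overlap, at 1.82 ± 0.505% of the marker sum in injured and 3.02 ± 0.144% in sham wild type (log2 difference -0.77, n = 3 each, SD). Sst was at -0.61 with overlap. In knockout the injured libraries were lower without overlap for Tac1 (-0.73) and Sst (-0.999), and overlapped the sham libraries for the other 5, with Nppb at 0.35. Uts2b was higher without overlap in wild type, at 2.00. Here too the share of all genes without overlap was not computed.

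**Figure D4:**
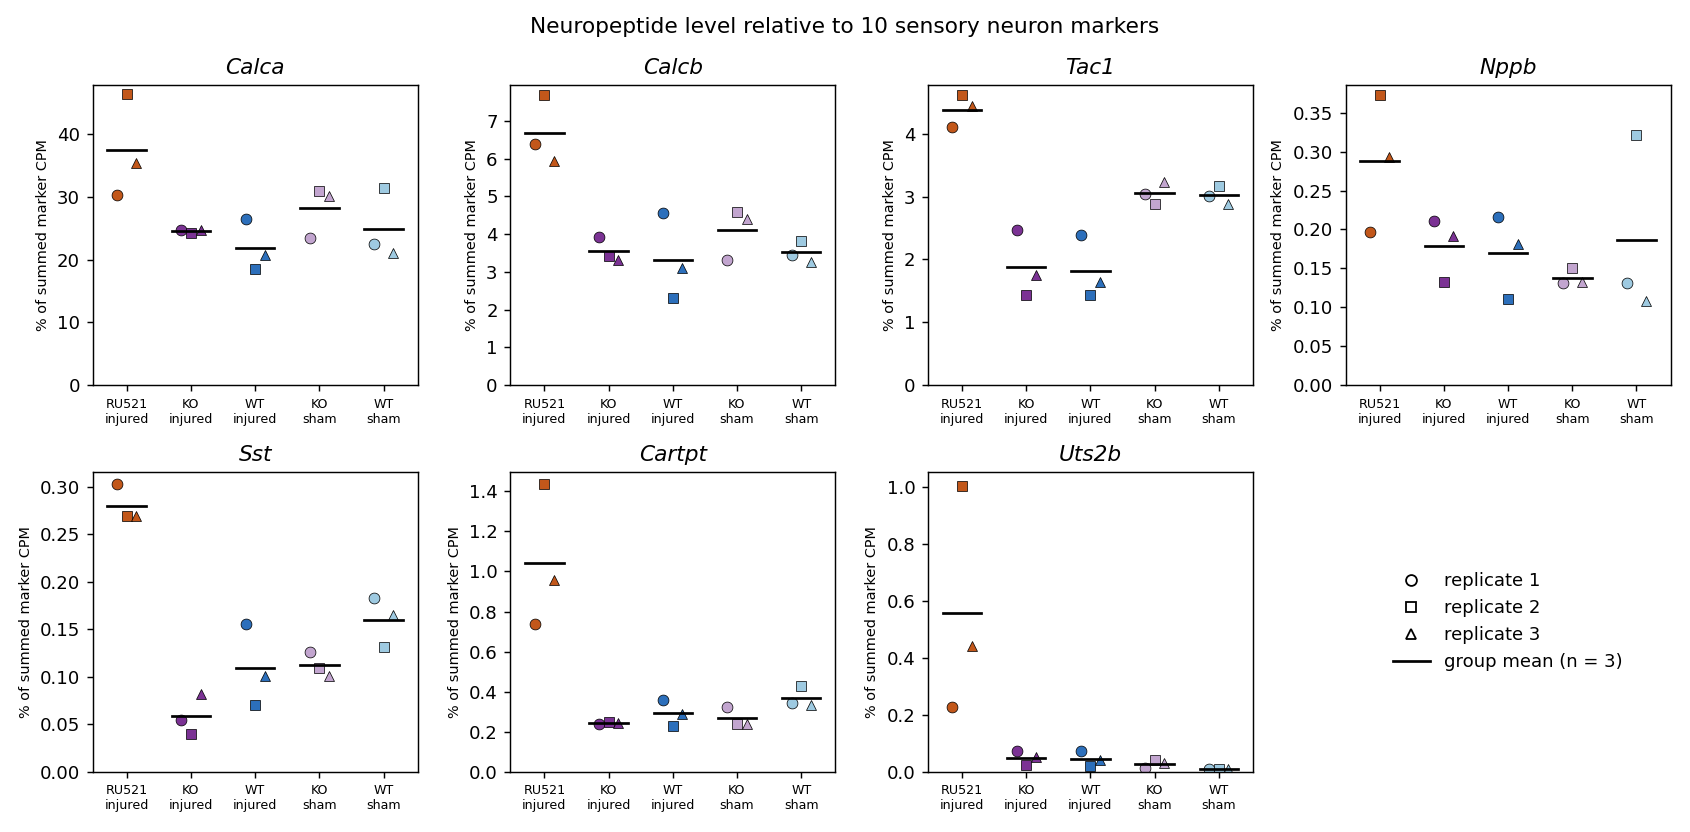
Level of each gene as a percentage of the summed CPM of 10 sensory neuron markers in the same library, with symbols for replicates and a line at the mean of 3. RU521 libraries stand above all injured libraries for every gene except Nppb, and Tac1 is lower in injured than in sham libraries of both genotypes.

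Within the nociceptor classes, genes outside the 7 were tested in all contrasts. Of 6 other markers of peptidergic nociceptors 3 rose with RU521 against injured wild type. Chrna3, a nicotinic receptor subunit gene that marks mechanically silent nociceptors in mice, averaged 14.2 ± 2.83 CPM with RU521 and 4.47 ± 1.18 CPM in injured wild type (1.67 ± 0.27, n = 3 each, edgeR adjusted p = 0.0029). It was also higher with RU521 than in sham wild type, at 4.93 ± 1.51 CPM (1.52 ± 0.27, edgeR adjusted p = 0.00841), a call lost when the groups compared were fitted alone. Smr2 rose by 1.34 ± 0.27 and Trpv1, the capsaicin receptor gene, by 1.17 ± 0.28 (edgeR adjusted p = 0.00783 and 0.0181). In injured wild type against sham, Trpv1 fell (-1.08 ± 0.28), but the list had 0 lower calls without sham replicates 1 and 3.

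Markers of other nociceptors also rose with RU521. Of 7 markers of nonpeptidergic nociceptors 5 rose, among them the receptor gene Mrgpra3 (1.87 ± 0.32), and the sum of the list was 416 to 785 CPM with RU521 and 185 to 311 CPM in injured wild type. The median of this list was 1.47, beside 1.74 for the 7 neuropeptide genes. Against sham wild type it was 0.56, beside 0.51 for the neuropeptide genes, with 0 of the 7 markers called. A rise with RU521 was thus not particular to the neuropeptide genes. With injury 4 of 7 fell in knockout and 3 of 7 in wild type, of which 0 were called lower without sham replicates 1 and 3. Of 4 markers of the itch neurons that make Nppb and Sst, Cysltr2, a leukotriene receptor gene, rose with RU521 (1.14 ± 0.32, edgeR adjusted p = 0.0333), a call lost when detected genes entered as a covariate.

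Genes of the vesicles that carry these peptides showed a like direction, while genes of precursor processing did so only in part. Of 10 granins and dense-core vesicle genes 6 rose with RU521 against injured wild type. Scg3, a secretogranin, averaged 579 ± 229 CPM with RU521 and 201 ± 29.6 CPM in injured wild type (1.53 ± 0.27, n = 3 each, edgeR adjusted p = 0.00422). Cadps, a factor of vesicle priming, rose by 1.29 ± 0.26 and Scg2 by 1.10 ± 0.25. The granin gene Chga fell with injury in knockout (-1.19 ± 0.27), the one call of the 10. In wild type 7 of 10 fell, with Chga at -1.47 ± 0.27, and 0 of 10 were called without sham replicates 1 and 3. Of 7 genes of precursor processing 2 were called higher with RU521 against injured wild type. These were Scg5, a chaperone of a convertase (0.81 ± 0.16), and Pcsk1n, a convertase inhibitor (0.86 ± 0.22). In that comparison 3 of the 7 lay below 0, and the median of the list was 0.06. Cpe, which had the highest mean level of the list, was at -0.75 ± 0.38 (edgeR adjusted p = 0.24). Scg5 fell with injury in knockout (-0.72 ± 0.16) and wild type (-0.92 ± 0.16). Of these 7 genes 0 were called lower in wild type without sham replicates 1 and 3.

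Receptor genes and receptor partners were listed by peptide family, so a listed gene need not serve one of the 7 peptides. They were mostly weak in the ganglion, and 14 of 18 reached the level needed for a test. With RU521 against injured wild type 1 of 14 was called, while 9 of 14 lay below 0. The median there was -0.65, against -0.03 for all genes. Sstr2, a somatostatin receptor gene, fell with injury to 1.33 ± 0.748 CPM in injured knockout, against 4.76 ± 1.11 CPM in sham knockout, and to 1.22 ± 0.0623 CPM in injured wild type, against 5.28 ± 1.85 CPM in sham wild type (-1.83 ± 0.38 and -2.11 ± 0.38, n = 3 each, edgeR adjusted p = 0.00652 and 0.00314). Ramp3, a partner of CGRP-family receptors, rose with injury in knockout (1.28 ± 0.28). Npr2, a natriuretic peptide receptor gene, rose with RU521 (1.10 ± 0.25), a call lost when the groups compared were fitted alone, and fell with injury in wild type (-1.03 ± 0.25). Neither Sstr2 nor Npr2 was called in wild type without sham replicates 1 and 3. Uts2r, the urotensin receptor gene, had 6 counts over the 3 RU521 libraries and 3 counts over the libraries of each other group.

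Other neuropeptides did not follow one direction. Nmb, the precursor of neuromedin B, rose with RU521 to 98.2 ± 32.7 CPM, against 35.5 ± 10.8 CPM in injured wild type (1.47 ± 0.24, n = 3 each, edgeR adjusted p = 0.00279), and was the one call among 7 tested of 8. It fell with injury in knockout (-0.81 ± 0.23) and wild type (-1.23 ± 0.23), and the wild-type call was lost without sham replicates 1 and 3. Other genes of that list rose with injury, 3 of 7 in knockout and 2 of 7 in wild type, or 1 of 8 in wild type without sham replicates 1 and 3 and 1 with only the groups compared or the covariate. Adcyap1, which encodes the peptide PACAP, rose in knockout (1.83 ± 0.24, edgeR adjusted p = 0.00024) and wild type (1.02 ± 0.24, edgeR adjusted p = 0.0111), and the opioid precursor gene Penk rose in knockout (1.11 ± 0.33, edgeR adjusted p = 0.0404). Grp, the gastrin-releasing peptide gene, was also called in both, with 105 counts over the injured knockout libraries and 3 over the sham ones, and 64 over the injured wild-type libraries and 5 over the sham ones. The injury-induced peptides Gal, Npy, Nts and Crh, 4 tested of 5, rose with injury in both genotypes, and 4 of 4 were also higher with RU521 than in sham wild type. Gal, which encodes galanin, had a lower level with RU521, 173 ± 75.6 CPM, than in injured wild type, 396 ± 118 CPM (-1.20 ± 0.28, n = 3 each, edgeR adjusted p = 0.0148), a call lost when the 2 groups were fitted alone.

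Across the 15 ganglion libraries, the genes most like each member in log2(CPM + 1), among 11387 genes with a mean of 5 CPM or more, were found by Pearson's r. Calca was most like Calcb (0.963), Pcbd1 (0.961) and Tac1 (0.960). Calcb was most like Stoml1 (0.964), Calca and Rarres1 (0.961), and Tac1 was most like Nrn1 (0.979), Ankrd13d (0.978) and Rarres1 (0.970). Sst was most like Klhl5 (0.977), Lpar3 (0.977) and Tafa4 (0.976). For Nppb they were Nt5c (0.888), B3glct (0.885) and Smr2 (0.857), and for Cartpt Smr2 (0.938), Shc1 (0.935) and Ly86 (0.925). Uts2b was most like Rab27a (0.933), Chrna3 (0.920) and Atp6v0b (0.875). These libraries share the group structure and differ in neuron content, and the values are descriptions.

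Among the 7 genes, r between pairs was 0.410 (Uts2b and Tac1) to 0.963 (Calca and Calcb) over the 15 libraries. After the group means were removed, Calca and Calcb still had 0.955 and Tac1 and Sst 0.837, whereas Uts2b had between 0.0976 (with Sst) and 0.448 (with Nppb), and Nppb between 0.169 (with Sst) and that value. Within groups, the CGRP genes, Tac1 and Sst thus varied together from library to library, and Nppb and Uts2b varied with them less.

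In the retinal table the genes had another pattern. These libraries came from retinal ganglion cells, the neurons whose axons form the optic nerve, of mice with floxed Ptpn2 that received an AAV vector (Cre for the knockout, GFP for wild type) 2 weeks before optic nerve injury. They were collected 3 days after it, following an eye injection of interferon gamma (IFNγ) or PBS. For the number of cells per library nothing was given in the sources used here. The 2 tables are not set side by side as levels. Cartpt was present in 12 of 12 retinal libraries, a known marker of a subset of these cells. It had 282, 479 and 447 CPM in knockout with IFNγ, 65.5, 675 and 29.7 CPM in wild type with IFNγ, 1331, 1543 and 2895 CPM in knockout with PBS and 217, 119 and 316 CPM in wild type with PBS. Knockout libraries with PBS lay above all others, and above wild type with PBS without overlap, as 7.93% of 13240 retinal genes with a mean of 1 CPM or more did. Calca, read in 11 of 12 libraries, had 0.212, 57.3 and 19.4 CPM in knockout with IFNγ, 20.9, 9.51 and 0 CPM in wild type with IFNγ, 65.3, 106 and 67.0 CPM in knockout with PBS and 5.74, 33.2 and 36.0 CPM in wild type with PBS. Its knockout libraries with PBS were also above all others. The share of retinal genes with knockout PBS libraries above all others was not computed. No test was made on this table. Tac1 was read in 12 of 12 libraries, at 4.44 to 891 CPM with a median of 182 CPM. With PBS it had 170, 233 and 78.2 CPM in knockout and 121, 891 and 524 CPM in wild type, which overlapped. Calcb and Nppb were read in 4 of 12 each. Sst and Uts2b had 0 counts in all 12, which allows up to 0.175 to 0.227 CPM a library by the floor of 3 counts, counting error only.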

How the data were processed

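Per the labels, polyadenylated RNA of ganglia was amplified with SMART-Seq v4 and made into Tn5 libraries, and retinal cells with Smart-seq2. The authors deposited raw counts per gene symbol in both tables. The submitters' processing notes name Trim Galore, STAR and the build GRCm38 (mm10). Per the file headers, featureCounts 2.0.1 counted the ganglion reads over Ensembl release 101 exons, unstranded and with mapping quality at least 10, in a run listing 20 alignment files (15 columns are present here). The gene lengths in bp (another unit) that the authors deposited beside these counts were used for levels per kilobase. For the retinal counts no method was given in the sources used here. The last line of that table names no gene, equals the column sum in 12 of 12 libraries and is 50% of the file total, and was left out.

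The 7 genes, the gene lists and the tests were chosen with earlier results of these data known. No libraries of a table were identical. Ganglion counts were fitted with edgeR 4.0.16 (R 4.3.3) after filterByExpr with minimum count 10 and minimum total 15 and scaling by TMM, in a robust quasi-likelihood fit over all 5 groups with Benjamini-Hochberg adjustment over the 18517 genes tested, with adjusted p under 0.05 as a call. Fitted log2 values use a prior count of 0.125. The steps were tested on simulated data. Levels are TMM-scaled CPM in ganglia and CPM by library total in the retina. Floors cover counting error only.

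Named genes were the 7 members, for each the 3 genes with the highest r, and of each list up to 3 called genes with the smallest p. Scn9a and Isl1 stand for the marker list, and Uts2r, Dbh, Slc18a3 and Penk were named after their values were seen. Some genes that the rule names are not reported here. Sequences are from RefSeq (promoters, GRCm38.p6) and GENCODE M21 (transcripts). Of 16 motifs searched in the promoter windows 7 are described, and the other 9 were the E-box, GC box, and the REST, ATF4, homeodomain, RUNX, C/EBP, ETS and EGR elements. Alternatives were DESeq2 size factors, no filter, DESeq2 1.42.0, limma-voom (limma 3.58.1) with quality weights, only the groups compared, a replicate block, detected genes as a covariate, and libraries left out. Division by 10 sensory neuron markers was added after the data were examined, as was recounting list calls without wild-type sham replicates 1 and 3. That recount keeps 1 wild-type sham library, so a lost call there also reflects the smaller group.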

Additional observations from a re-analysis of the deposited data

How the results depend on the processing

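Depth limits the low genes, since Sst and Uts2b rest on as few as 28 and 8 counts in a library. With RU521, 210 of 210 member values under the alternatives kept their direction. For wild-type injury 105 of 105 did. The genes were chosen by these contrasts and the alternatives refit the same libraries, so these counts are descriptions only. Some values came near 0. For wild-type injury the value nearest 0 was -0.02 for Nppb and -0.14 for Calcb. For RU521 against sham wild type it was 0.06 for Tac1. The direction changed in 4 of 105 values for knockout injury, 8 of 105 for genotype in injured and 9 of 105 in sham ganglia, and 12 of 147 for the interaction. The cause of each change below was not tested.

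Values that changed sign were the following. In sham ganglia (knockout against wild type), without sham replicates 1 and 3, Calca was 0.13, Calcb 0.38, Tac1 0.25 and Sst 0.10. With detected genes as covariate Calcb was 0.039 there, Tac1 -0.046 in injured ganglia, and Calcb -0.038 in the interaction. The interaction without those sham libraries was -0.25 for Calcb and -0.16 for Tac1, and for Sst it was 0.035 with no filter and 0.49 in limma-voom. Relative to the 10 sensory neuron markers, Calca was 0.19, Calcb 0.21 and Tac1 0.014 in sham ganglia, and Nppb 0.35 for injury in knockout, where it was 0.0089 in limma-voom. In the interaction on that scale Calca was -0.0053 and Calcb -0.060. With each library left out in turn, Nppb for injury in knockout was -0.196 to 0.16, Calcb in sham ganglia was -0.26 to 0.044, in injured ganglia Calcb was -0.078 to 0.46, Tac1 -0.16 to 0.37, Nppb -0.11 to 0.37 and Uts2b -0.19 to 0.81, and the Sst interaction was -0.32 to 0.35.

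Counts of all genes called moved with the method. Fits without sham replicates 1 and 3 keep 1 wild-type sham library. For knockout against wild type in sham ganglia 25 were called, 596 with no filter, 259 with DESeq2, 3008 in limma-voom, 2 with only the groups compared, 192 with the covariate, 1371 without sham replicates 1 and 3, and 2 to 974 with each library left out. In injured ganglia 407 were called, then in the same order 711, 791, 2101, 1877, 1373, 797, and 194 to 293. The interaction had 83, against 423 with no filter, 295 with DESeq2, 1996 in limma-voom, 375 with the covariate, 1098 without both sham libraries, and 37 to 666. Injury in knockout had 2021, against 4412 in limma-voom, 4102 with only the groups compared, 3070 with the covariate, 3220 without both sham libraries, and 869 to 1388. Injury in wild type had 3070, against 9257, 1702, 849, 1586, and 1240 to 6513 in that order. RU521 against injured wild type had 1774, against 2892 with DESeq2, 6186 in limma-voom, 3085 without both sham libraries, and 476 to 2727. RU521 against sham wild type had 442, against 1344 with no filter, 1090 with DESeq2, 4589 in limma-voom, 10 with only the groups compared, 1169 with the covariate, 1847 without both sham libraries, and 112 to 2276.

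The fit did not pair libraries by replicate number. Deviations of same-numbered libraries from their group means had correlations of -0.116 to 0.267. In no comparison did they exceed 0.1 for all numbers. With 3 libraries a group this cannot exclude a pairing or a batch by replicate number. Replicate 1 had the lowest mitochondrial share of counts in each ganglion group. With the replicate block the calls were 71 in sham ganglia, 439 in injured ganglia, 130 in the interaction, 2478 and 3525 for injury in knockout and wild type, and 2134 and 578 for RU521 against injured and sham wild type, and 0 of 7 members passed between genotypes in sham or injured ganglia.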
